A study of Homo sapiens with 18 samples.

Results

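The matrix metalloprotease cluster of human chromosome 11q22 is a row of 9 genes for secreted zinc proteases. In genomic order they are MMP7, MMP20, MMP27, MMP8, MMP10, MMP1, MMP3, MMP12 and MMP13. They were taken from a count table of 58721 genes by their place in the cluster, and the cluster was picked because neighbours in it responded in opposite directions in these libraries. All values of the 9 genes are therefore given as a description, with no p-value. MMP27 had a count of 0 in all 18 libraries, and the other 8 genes passed the filter on low counts. MMP7 and MMP20 were near 0 in control libraries and passed through the groups in which they were high.

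The libraries came from A375, a human melanoma cell line obtained from ATCC, and form 6 groups of 3. In the first pair of groups TADA2B was knocked out, with guide 2 or with guide 1, and SOX10 was overexpressed. The next pair were the same knockouts without SOX10 overexpression. The last pair carried a control guide against GFP, with SOX10 overexpression and without. TADA2B encodes a subunit of SAGA, a chromatin complex that acetylates histones, and SOX10 encodes a transcription factor of melanocytes and their neural crest precursors. The sources used here do not say whether a knockout line was a clone or a pool, which promoter drove SOX10, or whether the 3 libraries of a group came from separate cultures. The p-values given for genes outside the cluster therefore measure only the spread between these libraries, which may be technical. The control libraries are the same for both guides, so their comparisons are not independent.

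Matrix metalloproteases cut the proteins of the extracellular matrix. They are secreted as inactive proenzymes, are switched on by other proteases and are held in check by tissue inhibitors (TIMPs) and by alpha-2-macroglobulin. MMP1, MMP8 and MMP13 are collagenases, which cut fibrillar collagens. MMP3 and MMP10 are stromelysins, which cut proteoglycans, laminin and fibronectin and activate other proenzymes. MMP7 is matrilysin, a short enzyme of epithelia, MMP12 is the elastase of macrophages, and MMP20 is enamelysin of the developing tooth. Many genes of the family have a TATA box and, just upstream of it, a binding site for AP-1, the dimer of Jun and Fos proteins.

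The cluster spans 435227 bases of hg38 (chr11:102520508-102955734, GENCODE 29), and all 9 genes lie on the minus strand. MMP8 (chr11:102711795-102727050) and MMP10 (chr11:102770503-102780628) are separated by 43452 bases. MMP10 is followed by MMP1 (chr11:102789920-102798160) after 9291 bases, and MMP1 by MMP3 (chr11:102835801-102843803) after 37640 bases. MMP12 (chr11:102862736-102875034) begins 18932 bases beyond MMP3, and MMP13 (chr11:102942995-102955734) closes the row. The plus-strand pseudogene WTAPP1 runs across MMP10 and MMP1, and its exons overlap 150 of the 1970 exonic bases of MMP1. The strand setting of the counting is not given in the sources used here, so reads of such a pair could not be told apart. WTAPP1 itself had 0 to 19 counts per library.

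RefSeq promoter windows (GRCh38.p14, the same build as hg38) matched 5 of the 9 genes, namely MMP7, MMP20, MMP27, MMP8 and MMP10. Each window runs from 250 bases before the annotated start to 50 bases after it. The windows of MMP8 and MMP10 are printed because these neighbours moved in opposite directions in knockout cells, and that of MMP7 because it was among the genes highest with knockout and SOX10 together. Capitals mark matches, on either strand, to any of 5 motifs searched. The motif of AP-1 was spelled TGANTCA, where N is any base. For the ETS family of factors it was AGGAAG. The letters AACAAT stood for the SOX family. A motif shared by LEF and SOX proteins was read as ACAAAG, and the TATA box was searched with the 6 letters TATAAA.
MMP8 (chr11:102724905-102725204, minus strand): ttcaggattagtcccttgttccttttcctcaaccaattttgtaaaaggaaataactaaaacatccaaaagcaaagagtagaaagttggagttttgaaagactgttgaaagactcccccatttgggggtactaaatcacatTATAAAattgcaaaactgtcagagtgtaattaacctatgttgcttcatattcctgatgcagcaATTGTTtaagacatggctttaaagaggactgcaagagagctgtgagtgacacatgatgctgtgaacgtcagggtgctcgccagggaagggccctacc
MMP10 (chr11:102780579-102780878, minus strand): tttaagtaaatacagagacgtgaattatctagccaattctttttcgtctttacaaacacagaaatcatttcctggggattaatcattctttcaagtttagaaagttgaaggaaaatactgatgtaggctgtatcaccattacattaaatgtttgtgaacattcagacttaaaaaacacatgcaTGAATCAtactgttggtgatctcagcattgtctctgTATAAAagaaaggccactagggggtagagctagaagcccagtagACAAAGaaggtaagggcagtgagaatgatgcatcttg
MMP7 (chr11:102530698-102530997, minus strand): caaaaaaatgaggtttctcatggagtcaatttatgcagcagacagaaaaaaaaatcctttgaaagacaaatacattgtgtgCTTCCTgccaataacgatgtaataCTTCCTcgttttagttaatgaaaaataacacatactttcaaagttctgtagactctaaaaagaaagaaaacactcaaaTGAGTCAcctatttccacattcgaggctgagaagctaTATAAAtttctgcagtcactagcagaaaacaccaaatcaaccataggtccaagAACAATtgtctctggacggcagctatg

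The MMP10 window held the AP-1 letters TGAATCA at bases -67 to -61 and TATAAA at -31 to -26, counted from the start. MMP7 held TGAGTCA at the same place, bases -67 to -61, and TATAAA at -30 to -25. It also held 2 matches of the ETS motif on the other strand, ending at -164 and -140, and AACAAT at bases 24 to 29. The MMP8 window held no AP-1 letters. It held TATAAA at -110 to -105 and the SOX letters in reverse, ATTGTT, at -47 to -42. The RefSeq start of MMP8 used for the window lies 2096 bases from the GENCODE start, so the window describes only the RefSeq start. Among 35116 RefSeq promoter windows of that length, 7.71% held AP-1 letters, 10.1% SOX, 33.6% ETS, 16.1% LEF/SOX and 11.5% TATA. A match describes letters and not a site in use, and no binding data were used.

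Total counts were 58573910 to 79874237 per library, and levels are CPM (counts scaled to each library's size) on library sizes adjusted by the trimmed mean of M-values (TMM). TADA2B transcripts were 25.7 to 27.6 CPM with guide 2 and SOX10, 23.9 to 26.8 with guide 1 and SOX10, 27.5 to 30.2 with guide 2, 25.6 to 26.4 with guide 1, 30.7 to 31.7 in SOX10-overexpressing control cells and 32.2 to 32.8 in control cells. The knockout difference in TADA2B, a log2 fold change of -0.25 (SE 0.0404, edgeR adjusted p = 1.16e-06), is one of transcript amount and does not measure the protein. SOX10 transcripts were 240 to 251 CPM with guide 2 and SOX10, 281 to 307 with guide 1 and SOX10, 39.9 to 46.1 with guide 2, 81.2 to 87 with guide 1, 451 to 454 in SOX10-overexpressing control cells and 341 to 364 in control cells. Summed over 12 melanoma markers, SOX10 among them, the level was 279 to 345 CPM in the knockout libraries without SOX10 overexpression. In control libraries it was 970 to 1000 CPM. TYR, the melanin-making tyrosinase, was under 0.1 CPM on average in every group.

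Together the 9 genes made up a small part of the transcriptome, and their sum was largest in knockout cells without SOX10 overexpression. For guide 2 the sum was 78.7 ± 1.32 CPM, and for guide 1 it was 75.6 ± 1.73 CPM, against 15.4 ± 0.695 CPM in control cells (SD, n = 3 each). With SOX10 overexpressed it was 45.7 ± 1.29 CPM for guide 2, 42 ± 0.688 CPM for guide 1 and 18.9 ± 0.449 CPM for control cells. The make-up of that sum also differed between groups. Corrected for transcript length, as CPM per kilobase of exon, MMP1 gave 45.5% and MMP3 36.3% of the cluster in guide 2 knockout cells, and 48.9% and 32.2% in guide 1 knockout cells. In control cells MMP8 gave 49% and MMP1 34.9%. MMP12 led in knockout cells with SOX10, at 62.1% with guide 2 and 58.4% with guide 1. In SOX10-overexpressing control cells MMP8 gave 65.3% and MMP12 19.8%. RNA came from whole cultures, so fewer cells expressing a gene and less RNA per cell cannot be told apart.

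**Figure D1:**
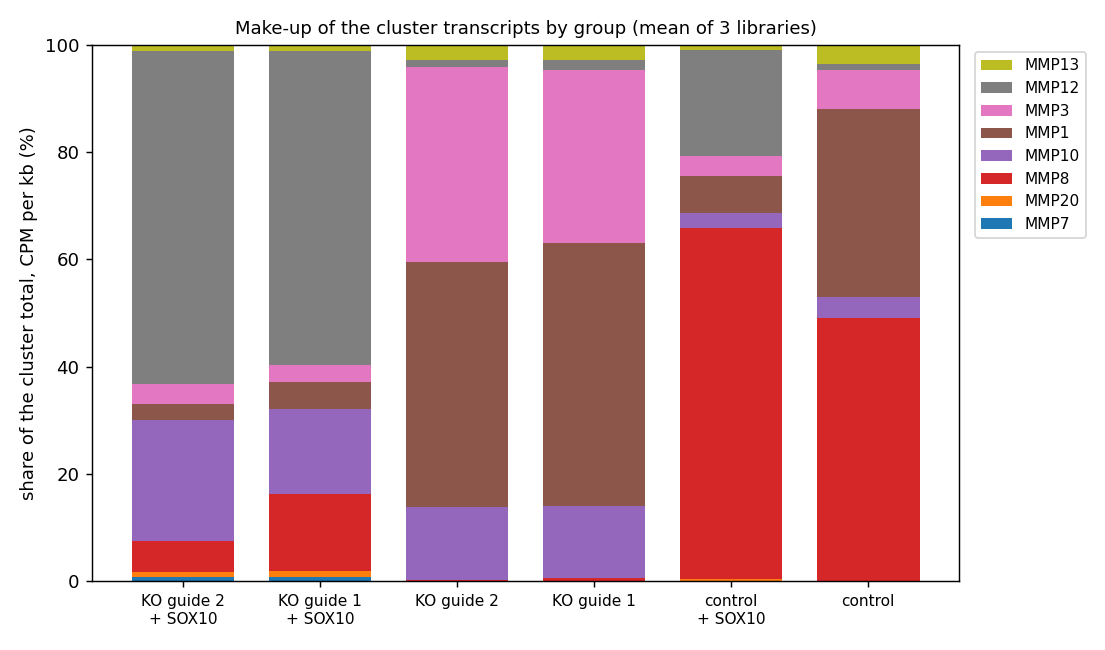
Share of each member in the summed CPM per kb of the cluster (y axis, percent, from 0) in the 6 groups (x axis, KO is TADA2B knockout), as means of 3 libraries. MMP12 fills most of both knockout bars with SOX10, MMP1 and MMP3 most of both knockout bars without it, and MMP8 and MMP1 most of the control bar.

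Among the collagenases, MMP8 and MMP1 ran opposite to each other. MMP8, the collagenase best known from neutrophils, had 4.40, 4.03 and 3.96 CPM with guide 2 and SOX10 and 8.93, 9.41 and 9.07 CPM with guide 1 and SOX10. Knockout alone left 0.132, 0.118 and 0.0842 CPM with guide 2 and 0.541, 0.610 and 0.540 CPM with guide 1. SOX10-overexpressing control cells had 14.7, 13.6 and 14.1 CPM, and control cells 9.17, 9.36 and 8.87 CPM. Every knockout library without SOX10 was far below every control library, and every library with SOX10 overexpression was above its own line without it. Against control, MMP8 stood at a log2 fold change of -6.34 (SE 0.248) with guide 2, and guide 1 gave -4.02 (SE 0.13). SOX10 overexpression changed it by 5.20 (SE 0.25) in the guide 2 line, 4.02 (SE 0.129) in the guide 1 line and 0.63 (SE 0.0752) in control cells, all log2. With guide 1 and SOX10 the libraries of MMP8 overlapped those of control cells, whereas with guide 2 and SOX10 they lay below them.

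MMP1, the interstitial collagenase and the most abundant member per length in knockout cells, had 34.9, 36.4 and 35.6 CPM with guide 2 and 37.9, 34.6 and 37.7 CPM with guide 1. Control cells had 3.88, 4.46 and 4.27 CPM. With SOX10 overexpressed, MMP1 was 1.63, 1.37 and 1.18 CPM in the guide 2 line, 2.08, 2.26 and 1.67 CPM in the guide 1 line and 0.805, 1.07 and 0.971 CPM in control cells. The knockout libraries were all above control, and all 9 libraries with SOX10 overexpression were below control, those of the knockout lines included. Guide 2 gave MMP1 a log2 fold change of 3.08 (SE 0.0791) against control, and guide 1 gave 3.13 (SE 0.0791). SOX10 overexpression changed MMP1 by -4.65 (SE 0.103) in the guide 2 line, -4.19 (SE 0.0913) in the guide 1 line and -2.14 (SE 0.127) in control cells. Knockout with SOX10 (mean of both guides) stood at -1.32 (SE 0.0894) relative to control cells.

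MMP13, the collagenase of cartilage and bone, differed in the same direction as MMP1. It had 3.08, 3.23 and 3.26 CPM with guide 2 and 2.90, 3.59 and 2.90 CPM with guide 1, against 0.373, 0.830 and 0.753 CPM in control cells. With SOX10 it had 0.744, 0.916 and 0.575 CPM in the guide 2 line, 0.737, 0.819 and 0.512 CPM in the guide 1 line, and 0.314, 0.121 and 0.221 CPM in control cells. It was thus above control in all 6 knockout libraries, and with SOX10 added its knockout libraries overlapped those of control cells. The log2 fold change of MMP13 was 2.29 (SE 0.215) for guide 2 and 2.26 (SE 0.216) for guide 1 against control. SOX10 overexpression changed it by -2.08 (SE 0.206), -2.18 (SE 0.207) and -1.57 (SE 0.318) in the guide 2 line, the guide 1 line and control cells.

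**Figure D2:**
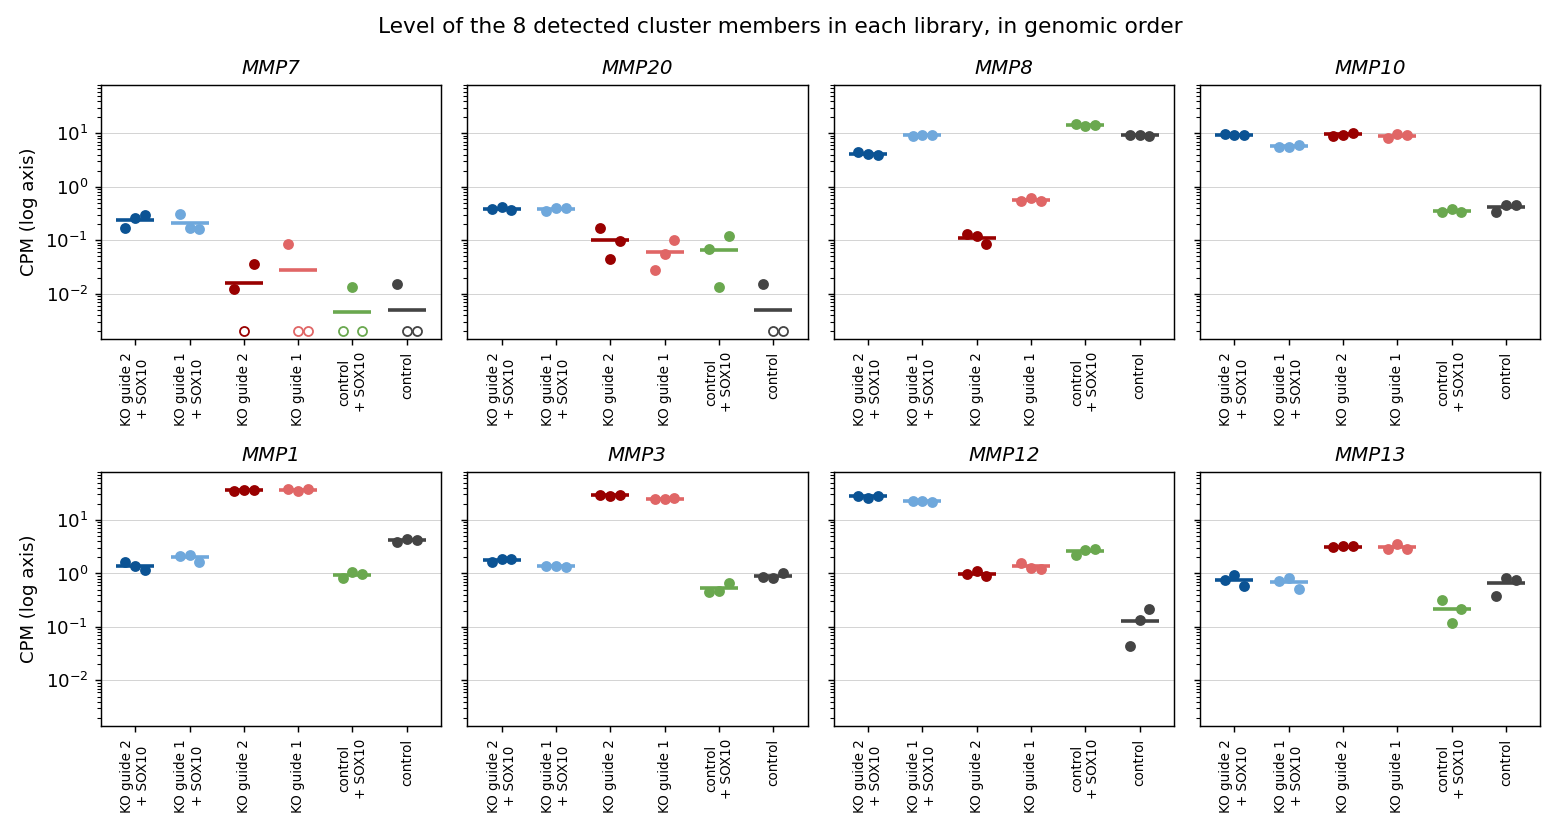
Level of each detected member in every library, in CPM on a log axis (y), by group (x, KO is TADA2B knockout), with a line at the mean of 3 libraries. Open circles at the bottom stand for a count of 0. MMP8 is low in both knockout groups without SOX10, MMP1, MMP3 and MMP13 are high there, MMP10 is high in all 4 knockout groups, and MMP12, MMP7 and MMP20 are highest in both knockout groups with SOX10.

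The stromelysins MMP3 and MMP10 were both higher in knockout cells, and they parted when SOX10 was added. MMP3 had 29.4, 27.9 and 29.9 CPM with guide 2 and 24.2, 24.2 and 25.7 CPM with guide 1, against 0.865, 0.830 and 0.999 CPM in control cells. With SOX10 overexpressed it had 1.66, 1.85 and 1.87 CPM in the guide 2 line, 1.36, 1.39 and 1.33 CPM in the guide 1 line, and 0.450, 0.470 and 0.662 CPM in control cells. All knockout libraries of MMP3 were above control, with SOX10 and without. The log2 fold change of MMP3 against control came to 5.02 (SE 0.113) for guide 2 cells and 4.78 (SE 0.113) for guide 1 cells, the largest rise of the cluster among members with more than 1 count in control cells. SOX10 overexpression changed it by -4.02 (SE 0.0891) in the guide 2 line, -4.18 (SE 0.0947) in the guide 1 line and -0.77 (SE 0.163) in control cells.

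MMP10, second of the stromelysins, had 9.05, 9.32 and 10.3 CPM with guide 2 and 8.15, 9.64 and 9.22 CPM with guide 1. Control cells had 0.343, 0.460 and 0.461 CPM. With SOX10 it had 9.64, 9.20 and 9.39 CPM in the guide 2 line, 5.63, 5.50 and 5.97 CPM in the guide 1 line, and 0.341, 0.389 and 0.338 CPM in control cells. MMP10 was therefore high in all 12 knockout libraries, whether or not SOX10 was overexpressed. Against control, guide 2 cells had a log2 fold change of 4.50 (SE 0.159) and guide 1 cells one of 4.41 (SE 0.16). SOX10 overexpression changed MMP10 by -0.02 (SE 0.0816) in the guide 2 line, where the libraries overlapped, and by -0.66 (SE 0.0847) in the guide 1 line, where they did not. In control cells the change was -0.24 (SE 0.215), and the libraries overlapped.

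MMP12, known as the elastase of macrophages, was higher with either change than in control cells and highest with both. It had 27.9, 26.2 and 28.6 CPM with guide 2 and SOX10 and 22.9, 22.6 and 22.1 CPM with guide 1 and SOX10. Knockout alone gave 0.958, 1.11 and 0.914 CPM with guide 2 and 1.60, 1.26 and 1.20 CPM with guide 1. SOX10-overexpressing control cells had 2.20, 2.78 and 2.91 CPM, and control cells 0.0447, 0.133 and 0.215 CPM. All libraries of the other groups lay above the control range. The log2 fold change of MMP12 against control was 2.90 (SE 0.321) with guide 2, 3.36 (SE 0.317) with guide 1, 4.31 (SE 0.311) for SOX10 in control cells and 7.56 (SE 0.303) for knockout with SOX10, a 189-fold difference. SOX10 overexpression changed it by 4.80 (SE 0.125) in the guide 2 line and 4.06 (SE 0.115) in the guide 1 line. On the log2 scale the SOX10 difference in knockout cells exceeded that in control cells by 0.12 (SE 0.323), less than its error. The sum over 8 macrophage markers was 0.386 to 1.39 CPM over all libraries, and CD68, TYROBP, AIF1 and MARCO were under 0.1 CPM on average in every group. CD163, a scavenger receptor of macrophages, moved with MMP12 under SOX10. It had 145 counts with guide 2 and SOX10, 162 with guide 1 and SOX10, 1 with guide 2, 0 with guide 1, 54 in SOX10-overexpressing control cells and 4 in control cells. CD163 was called higher under SOX10 in knockout cells (edgeR adjusted p = 8.08e-16) and in control cells (adjusted p = 1.88e-05). Of the 4 macrophage markers tested, 2 rose and 1, CSF1R, fell under SOX10 in knockout cells, beside 28.1% of all genes in each direction. In control cells 1 rose and 1, CD14, fell, beside 17.3% of all genes higher and 17.2% lower. CD163 was not higher in knockout cells without SOX10 overexpression, where MMP12 was. The part of macrophage markers in the MMP12 difference was not tested.

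MMP7 and MMP20 were detected in few counts. MMP20 had 32, 30 and 22 counts with guide 2 and SOX10 and 27, 31 and 30 with guide 1 and SOX10. Knockout alone gave 14, 3 and 8 counts with guide 2 and 2, 4 and 8 with guide 1. SOX10-overexpressing control cells had 5, 1 and 8 counts, and the control libraries 1, 0 and 0. The ratio of MMP20 between knockout with SOX10 and knockout alone, corrected for depth, was 3.65 (exact 95% counting interval 2.31 to 5.95) for guide 2 and 6.16 (3.48 to 11.7) for guide 1. Against control the ratio rested on 1 control count and was 77.6 (13.6 to 3100) with guide 2 and SOX10 and 76.9 (13.4 to 3070) with guide 1 and SOX10. These intervals cover counting error only. All 6 libraries of knockout with SOX10 were above all others for MMP20. AP000851.1, an antisense gene that shares no exonic base with MMP20, had 69 and 58 counts in the guide 2 and guide 1 groups with SOX10 and 11 to 20 counts in each other group.

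MMP7, matrilysin, had 14, 19 and 18 counts with guide 2 and SOX10 and 24, 13 and 12 with guide 1 and SOX10. Knockout alone gave 1, 0 and 3 counts with guide 2 and 6, 0 and 0 with guide 1, SOX10-overexpressing control cells 0, 1 and 0, and control cells 1, 0 and 0. For MMP7 only the libraries with both changes held more than 6 counts. The depth-corrected ratio of MMP7 between knockout with SOX10 and knockout alone was 13.8 (exact 95% counting interval 5.09 to 52.7) for guide 2 and 8.01 (3.43 to 22.9) for guide 1. Its ratio to control rested on 1 control count and was 47.1 (8.09 to 1900) with guide 2 and SOX10 and 42.8 (7.33 to 1730) with guide 1 and SOX10. MMP27, next to MMP20 in the row, was at 0 throughout, where 3 counts in a library would have been 0.0359 to 0.0493 CPM.

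**Figure D3:**
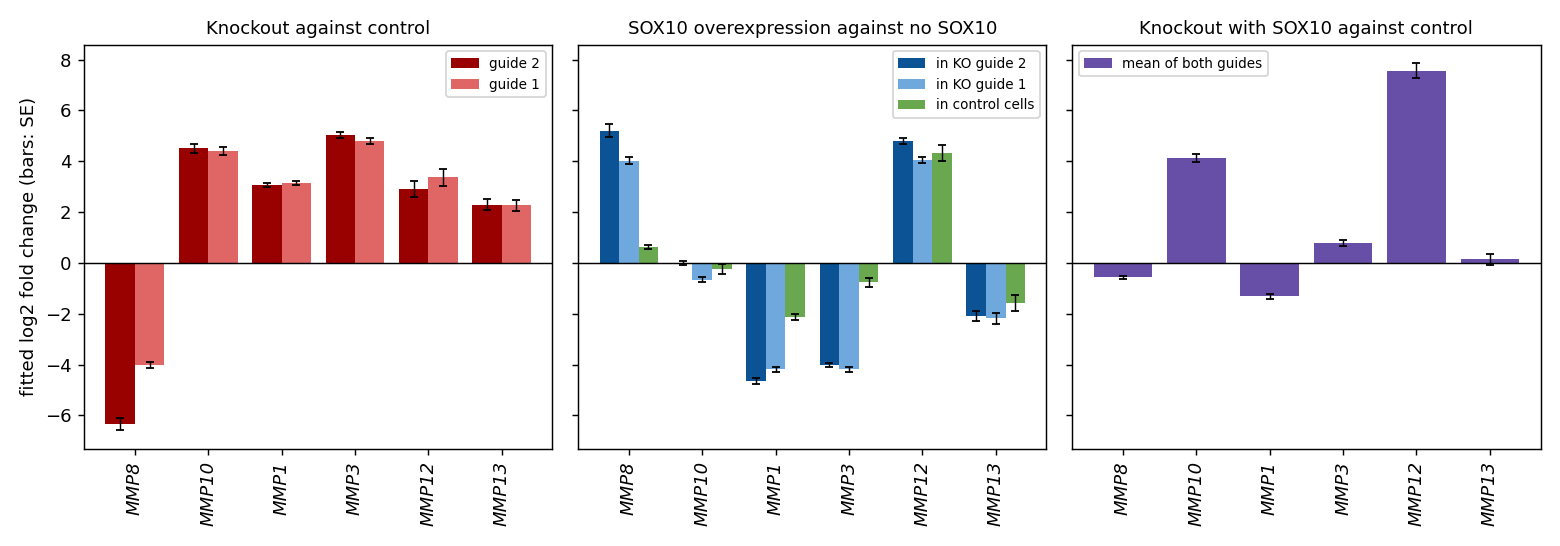
Fitted log2 fold changes (y axis) with their SE of the 6 members with more than a few control counts, in genomic order (x axis), for knockout against control by guide, for SOX10 overexpression in each line, and for knockout with SOX10 against control. MMP8 points down and its neighbour MMP10 up for knockout against control by guide. For SOX10 overexpression in each line MMP12 points up and its neighbour MMP3 down. Both MMP12 and MMP3 point up for knockout with SOX10 against control.

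Read along the chromosome, neighbours thus differed in both comparisons. In knockout cells MMP8 was lower (log2 fold change -5.18, SE 0.145, mean of both guides) and MMP10, the next gene, higher (4.46, SE 0.154). Under SOX10 overexpression in knockout cells MMP3 was lower (-4.10, SE 0.065) and MMP12, the next gene, higher (4.43, SE 0.0849). MMP1 and MMP10 lie closest together of the genes from MMP8 to MMP13. Both were higher in knockout cells, yet under SOX10 MMP1 differed by -4.42 (SE 0.0689) and MMP10 by -0.34 (SE 0.0588). Of the 8 members tested, 6 were called higher and 1 lower for knockout against control, the mean of both guides, where 58.1% of the 21060 genes tested were called (28.6% higher and 29.5% lower). With total counts as the scale 72% of all the calls were higher, beside 49.3%. MMP7 was not called. By guide the same numbers of members were called, beside 55.9% of all genes for guide 2 and 52.6% for guide 1. For SOX10 in knockout cells 4 members were called higher and 4 lower, beside 56.2% of all genes, with 28.1% in each direction. In the guide 2 line 4 were called higher and 3 lower beside 48.6%, MMP10 not being called, and in the guide 1 line 4 higher and 4 lower beside 43.7%. For SOX10 in control cells 3 were called higher and 3 lower, beside 34.4% of all genes, 17.3% higher and 17.2% lower. Since the members were picked on these contrasts, nothing is read from the counts. The median log2 fold change of the 8 members for knockout was 3.12, and over all genes it was -0.009.

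With the knockout in place SOX10 brought some members back near control and left others away from it. Relative to control cells, knockout with SOX10 (mean of both guides) stood at -0.57 (SE 0.0683) for MMP8, 0.14 (SE 0.214) for MMP13, 0.80 (SE 0.118) for MMP3, -1.32 (SE 0.0894) for MMP1, 4.12 (SE 0.155) for MMP10 and 7.56 (SE 0.303) for MMP12, all log2. In that comparison 5 of the 8 members were called higher and 2 lower, beside 57.9% of all genes, 30.0% higher and 27.9% lower. Within SOX10-overexpressing cells, knockout against control gave -1.20 (SE 0.0659) for MMP8, 0.82 (SE 0.125) for MMP1, 1.57 (SE 0.139) for MMP3, 1.72 (SE 0.288) for MMP13, 3.25 (SE 0.0906) for MMP12 and 4.35 (SE 0.16) for MMP10. Here 7 members were called higher and 1 lower, beside 55.0% of all genes, 28.2% higher and 26.7% lower. MMP8 alone was below its SOX10-overexpressing control. The SOX10 effect itself differed between knockout and control cells by 3.98 (SE 0.159) for MMP8, -2.28 (SE 0.145) for MMP1 and -3.33 (SE 0.176) for MMP3 on the log2 scale. These were the 3 members called for that difference, beside 33.3% of all genes, 18.1% higher and 15.1% lower. The members were picked for their responses in these groups, so nothing is read from the calls of members here. SOX10 transcripts themselves rose unequally, by 2.15 (SE 0.0271) in knockout cells and 0.35 (SE 0.0364) in control cells, both log2. The part of that unequal rise in these differences was not tested.

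Without SOX10 the guides differed most at MMP8. Guide 2 against guide 1 without SOX10 was -2.33 (SE 0.269) for MMP8, 0.23 (SE 0.0636) for MMP3 and -0.45 (SE 0.151) for MMP12 on the log2 scale, and in all 3 the libraries of the guides did not overlap. MMP10, MMP1 and MMP13 overlapped between the guides. With SOX10 overexpressed, MMP13 overlapped between the guides. MMP10, MMP12 and MMP3 were then higher with guide 2, and MMP8 and MMP1 lower, by the library values given above. The share of all genes without overlap was not counted, with SOX10 or without. Nothing is therefore read from how many members did not overlap. Beside MMP8, SOX10 transcripts also differed between the guides, at 43.4 ± 3.16 CPM for guide 2 and 83.6 ± 3.02 CPM for guide 1 (SD, n = 3 each), and the part of that difference in MMP8 was not tested. Without SOX10, MMP8 and MMP3 were the 2 members called, 1 lower and 1 higher, beside 8.74% of all genes, 2.65% higher and 6.09% lower. Since the members were picked in these groups, nothing is read from these calls either. The MMP3 call was lost when guide 1 replicate 1, guide 1 replicate 2 or guide 2 replicate 3 was left out.

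Per kilobase of exon, the order of levels turned over between groups. In knockout cells of guide 2, MMP1 (18.1 ± 0.386 CPM per kb) was above MMP3 (14.4 ± 0.51), followed by MMP10 (5.44 ± 0.388), MMP13 (1.13 ± 0.0346) and MMP12 (0.53 ± 0.0538), with MMP8 at 0.0364 ± 0.008 (SD, n = 3). In guide 2 cells with SOX10, MMP12 (14.7 ± 0.675) was first, then MMP10 (5.35 ± 0.127), MMP8 (1.35 ± 0.0772), MMP3 (0.889 ± 0.0582) and MMP1 (0.708 ± 0.115). In guide 1 cells with SOX10, MMP12 (12 ± 0.209) was again first, then MMP10 (3.24 ± 0.138), MMP8 (2.99 ± 0.0822), MMP1 (1.02 ± 0.154) and MMP3 (0.675 ± 0.0143), so that MMP1 and MMP3 stood in the other order than with guide 2. In guide 1 knockout cells the order was MMP1 (18.6 ± 0.949), MMP3 (12.3 ± 0.435), MMP10 (5.12 ± 0.437), MMP13 (1.1 ± 0.14), MMP12 (0.722 ± 0.113) and MMP8 (0.184 ± 0.013), as with guide 2. In control cells MMP8 (2.99 ± 0.0804) stood above MMP1 (2.13 ± 0.152), MMP3 (0.445 ± 0.0442), MMP10 (0.24 ± 0.0386) and MMP13 (0.23 ± 0.0865). MMP10 and MMP13 did not differ beyond their spread there.

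Across the 18 libraries the members fell into patterns that can be described by correlation of log2 CPM. The libraries share 6 groups, so the values describe the groups and carry no p. MMP1, MMP3 and MMP13 ran together (Pearson r = 0.94 for MMP1 and MMP3, 0.94 for MMP3 and MMP13, 0.91 for MMP1 and MMP13), and MMP8 ran opposite to them (r = -0.90, -0.97 and -0.90 with MMP1, MMP3 and MMP13). MMP12 ran with MMP20 (r = 0.89) and MMP7 (r = 0.82), and MMP10 lay between, with r = 0.72 to MMP3 and 0.50 to MMP12. Of 14184 genes compared, those most like MMP8 were IRS2 (r = 0.997), GAS7 (0.994) and SOX10 (0.994). MMP10 was most like PEAR1 (0.997), CYP26B1 (0.996) and TRIML2 (0.995), and MMP1 most like MYH15 (0.996), CCN3 (0.992) and FSTL1 (0.991). MMP3 was nearest to GEM (0.993), RAB31 (0.991) and MDK (0.991), MMP12 to SPP1 (0.989), KLHL4 (0.987) and PRDM1 (0.984), and MMP13 to MSX1 (0.977), SNCG (0.977) and LTA4H (0.975).

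The genes flanking the cluster had smaller fold changes in knockout cells than the 6 members with more than a few control counts. That difference was not tested, since the members were picked on this contrast. Within 1 Mb of either end, 10 genes had at least 1 CPM on average over the 18 libraries, and these were tested. CFAP300, a flanking gene at 0.773 CPM on average, was tested too but is not among the 10. It rose by 1.33 (SE 0.216, edgeR adjusted p = 8.71e-07) in knockout cells, more than any of the 10. BIRC3, an inhibitor of apoptosis, reached 13.5 ± 2.12 CPM in guide 2 cells and 12.5 ± 0.695 CPM in guide 1 cells, against 6.41 ± 0.258 CPM in control cells (SD, n = 3 each), a log2 fold change of 1.02 (SE 0.0721, edgeR adjusted p = 9.82e-16, mean of both guides). Its neighbour BIRC2, a second inhibitor of apoptosis, fell to 103 ± 4.65 and 108 ± 2.53 CPM with guides 2 and 1, against 159 ± 4.56 CPM in control cells (log2 fold change -0.59, SE 0.0263, adjusted p = 8.79e-23). CEP126, a centrosomal protein gene, rose by 1.08 (SE 0.0707, adjusted p = 9.63e-17), YAP1, the Hippo pathway coactivator, fell by 0.41 (SE 0.0232, adjusted p = 5.05e-19) and AP001486.2 fell by 0.60 (SE 0.115, adjusted p = 1.67e-05). AP001486.2 is the nearest of these genes at the MMP13 end. TMEM123, the nearest at the MMP7 end, did not pass the test at -0.03 (adjusted p = 0.321), nor did DCUN1D5 at -0.03 (adjusted p = 0.295). The same held for DYNC2H1, a motor protein gene of cilia, at -0.04 (adjusted p = 0.378), PDGFD at 0.09 (adjusted p = 0.189) and AP001527.2 at -0.26 (adjusted p = 0.176). Scaling by total counts turned TMEM123, DCUN1D5 and DYNC2H1 to small positive values past the threshold and put PDGFD at 0.25 (adjusted p = 0.000392).

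PDGFD, which encodes a platelet-derived growth factor, was the flanking gene with the largest SOX10 response. It was 21.8 ± 1.05 CPM with guide 2 and SOX10 against 6.61 ± 0.169 CPM with guide 2 alone, 21 ± 0.892 against 6.22 ± 0.147 CPM for guide 1, and 23.7 ± 0.713 against 6.02 ± 0.193 CPM for control cells (SD, n = 3 each). The log2 fold change of PDGFD was 1.74 (SE 0.0433, edgeR adjusted p = 1.97e-31) in knockout cells and 1.98 (SE 0.0628, adjusted p = 6.53e-27) in control cells. BIRC2 rose under SOX10 by 0.51 (adjusted p = 2.14e-23) in knockout cells and 0.29 (adjusted p = 1.72e-10) in control cells. CEP126 fell under SOX10 in knockout cells (-0.81, adjusted p = 1.71e-16) and was at 0.07 in control cells (adjusted p = 0.57). CFAP300, not among the 10, changed by -1.57 (adjusted p = 1.21e-10) in knockout cells and -0.47 (adjusted p = 0.196) in control cells.

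**Figure D4:**
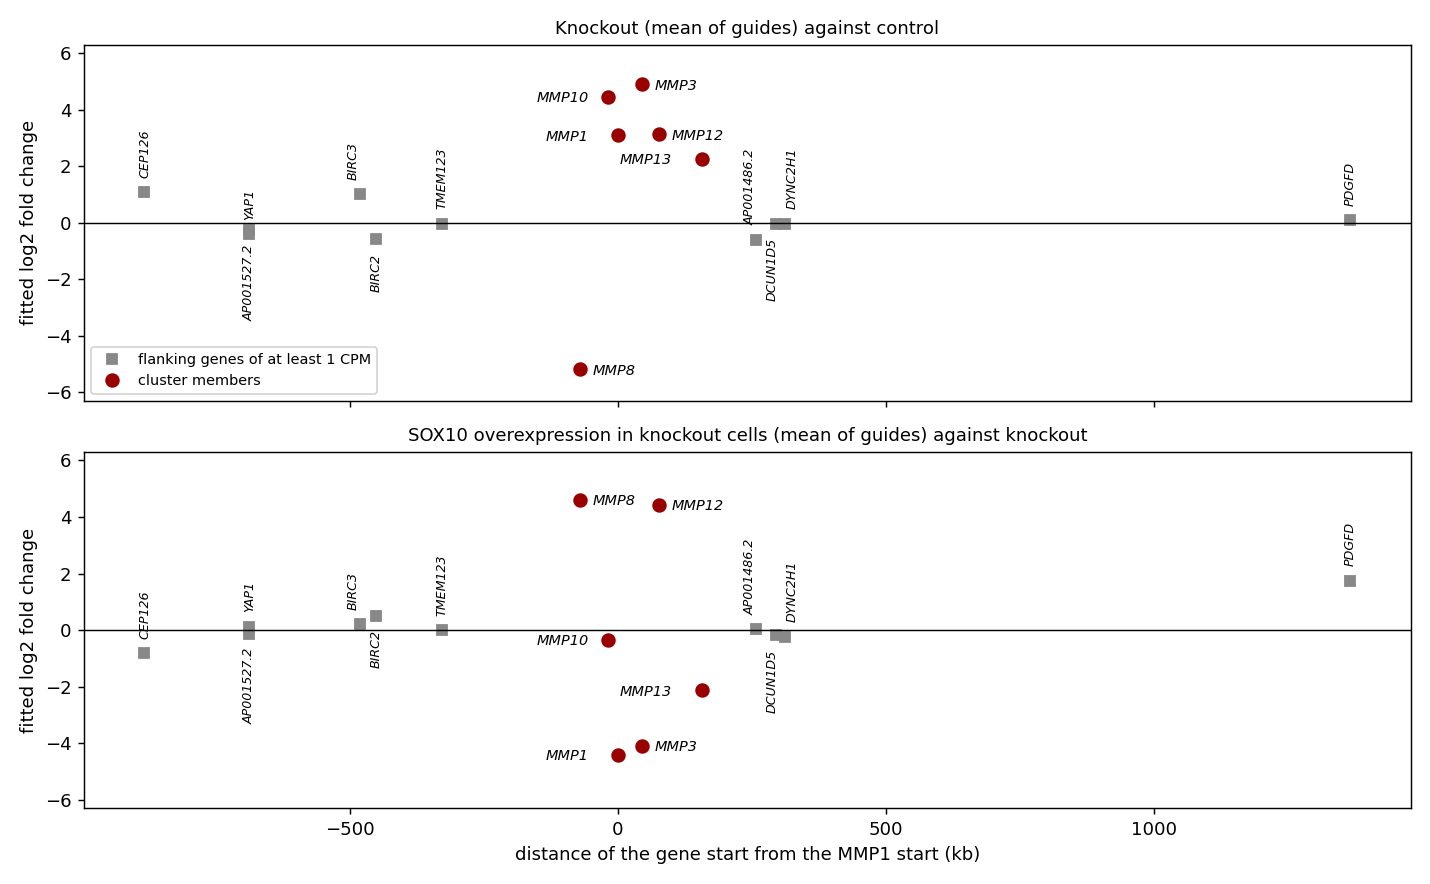
Fitted log2 fold change (y axis) against the distance of each gene's start from that of MMP1 (x axis, kb) for 6 cluster members (circles) and the 10 flanking genes of at least 1 CPM (squares), for knockout against control above and SOX10 in knockout cells below. Members run from -5.18 to 4.90 in the upper panel, and these 10 flanking genes from -0.60 to 1.08. CFAP300, a flanking gene below 1 CPM on average, is not drawn.

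Metalloproteases outside the cluster moved in both directions in knockout cells. Of 14 such genes, 11 were tested, of which 4 rose and 4 fell, with a median log2 fold change of 0.18 against -0.009 over all genes. Over all genes tested, 28.6% were called higher and 29.5% lower for knockout. For SOX10 the shares were 28.1% in each direction in knockout cells, and 17.3% higher and 17.2% lower in control cells. These shares stand beside the counts of every gene list below, and nothing is read from a count alone. The membrane-bound MMP17, MMP15 and MMP16 fell by 3.13 (SE 0.115, edgeR adjusted p = 2.97e-26), 2.15 (SE 0.0813, adjusted p = 3.44e-25) and 1.97 (SE 0.0291, adjusted p = 7.5e-40) on the log2 scale. MMP11, stromelysin 3, rose by 1.69 (SE 0.325, adjusted p = 1.14e-05) and MMP19 by 1.50 (SE 0.139, adjusted p = 3.51e-12). MMP28 was called higher (2.27, SE 0.996, adjusted p = 0.0203) from 26 and 32 counts in the knockout groups of guide 2 and guide 1 and 5 in control, with libraries that overlapped. Its call was lost without control replicate 1 (1.71), control replicate 3 (1.73) or guide 1 replicate 1 (1.90), and its value was 6.24 without control replicate 2. Under SOX10 in knockout cells 4 of the 11 rose and 4 fell, and in control cells 4 rose and 3 fell.

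The inhibitors of the enzymes moved in both directions. Of 7 tested, 3 rose and 2 fell in knockout cells, with a median of 0.08, beside 28.6% of all genes higher and 29.5% lower. TIMP3, the matrix-bound inhibitor, stood at 104 ± 2.29 CPM in guide 2 cells and 222 ± 4.42 CPM in guide 1 cells, against 1860 ± 7.98 CPM in control cells (SD, n = 3 each), a log2 fold change of -3.61 (SE 0.0206, edgeR adjusted p = 3.4e-54). A2M, alpha-2-macroglobulin, stood at 3.66 ± 0.272 CPM in guide 2 cells and 5.58 ± 0.0923 CPM in guide 1 cells, against 56.2 ± 1.8 CPM (log2 fold change -3.64, SE 0.0478, adjusted p = 3e-42). TFPI2 rose by 1.14 (SE 0.0318, adjusted p = 4.39e-29), TIMP1 by 0.35 (SE 0.0272, adjusted p = 2.38e-14) and TIMP2 by 0.32 (SE 0.0269, adjusted p = 1.54e-13). SOX10 in knockout cells raised 4 of the 7 and lowered 3, TIMP3 by 1.42 (adjusted p = 3.11e-42) and A2M by 2.13 (adjusted p = 7.19e-35) among those raised. In control cells SOX10 raised 4 and lowered 1.

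Of the proteases that activate the proenzymes and their regulators, 9 of 13 were tested. In knockout cells 4 rose and 4 fell, with a median of 0.00, beside 28.6% of all genes higher and 29.5% lower. PLAU, urokinase, which makes plasmin, reached 11.1 ± 0.713 CPM in guide 2 cells and 8.23 ± 0.283 CPM in guide 1 cells, against 0.116 ± 0.0751 CPM in control cells, a log2 fold change of 6.35 (SE 0.322, edgeR adjusted p = 4.59e-29). PLAT, tissue plasminogen activator, fell by 1.99 (SE 0.0311, adjusted p = 4.61e-39) and the membrane protease HPN by 4.25 (SE 0.407, adjusted p = 3.16e-14). SERPINB2 rose by 1.75 (SE 0.206, adjusted p = 1.17e-10) and ST14, matriptase, by 2.64 (SE 1.1, adjusted p = 0.00752), the last from 3 control counts and with libraries that overlapped. The ST14 call was lost without control replicate 3 (2.12, adjusted p = 0.0533). Under SOX10 in knockout cells 4 rose and 4 fell, PLAU (-1.37, adjusted p = 5.77e-19) among those that fell. In control cells 1 rose and 5 fell.

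Among 14 of 16 matrix substrates tested, 5 rose and 6 fell in knockout cells, with a median of -0.01. Over all genes 28.6% were called higher and 29.5% lower. The collagen genes COL3A1 and COL1A1 rose by 4.18 (SE 1.03, edgeR adjusted p = 3.09e-06) and 3.12 (SE 0.139, adjusted p = 2.09e-23) on the log2 scale. COL3A1 was near the floor, with 82 and 57 counts in the guide 2 and guide 1 groups and 3 in control. Aggrecan, ACAN, fell by 4.78 (SE 0.151, adjusted p = 6.94e-33), the cartilage collagen COL2A1 by 2.96 (SE 0.314, adjusted p = 8.09e-12) and tenascin C, TNC, by 1.62 (SE 0.0236, adjusted p = 2.98e-40). COL2A1 had 15 and 28 counts in the guide 2 and guide 1 groups and 141 in control. The laminin chain LAMB3 rose by 1.98 (SE 0.0535, adjusted p = 4.23e-29). SOX10 raised 7 and lowered 7 in knockout cells, ACAN by 6.10 (adjusted p = 1.67e-40) and COL1A1 by -1.46 (adjusted p = 7.55e-19), and raised 5 and lowered 7 in control cells.

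Transcription factors known to act at promoters of this family, the Jun, Fos, ETS and RUNX genes among them, were all tested. Of 25, 9 rose and 14 fell in knockout cells, with a median of -0.18, beside 28.6% of all genes higher and 29.5% lower. The largest changes were in BATF3 (1.48, SE 0.131, edgeR adjusted p = 3.53e-13), LEF1 (-1.46, SE 0.0365, adjusted p = 9.77e-32), ETV5 (-1.15, SE 0.0269, adjusted p = 9.91e-33), ATF3 (1.00, SE 0.0638, adjusted p = 6.17e-17), RUNX1 (-0.92, SE 0.0277, adjusted p = 8.98e-29) and RUNX2 (0.91, SE 0.0806, adjusted p = 7.86e-13). The part of these changes in the differences of the members was not tested. SOX10 raised 12 and lowered 12 in knockout cells, and raised 7 and lowered 9 in control cells. RUNX2 fell under SOX10 by 1.10 (adjusted p = 2.02e-18) in knockout cells and FOS rose by 1.51 (adjusted p = 5.19e-23).

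There were 14 growth factors, cytokines and receptors known to induce these genes that were tested. In knockout cells 10 rose and 3 fell, with a median log2 fold change of 0.84. Over all genes 28.6% were called higher and 29.5% lower, and this list was chosen with earlier results of these data known. The receptor gene F2RL1 rose by 2.35 (SE 0.0571, edgeR adjusted p = 3.88e-31), amphiregulin, AREG, by 1.75 (SE 0.0711, adjusted p = 1.36e-23), HBEGF by 1.74 (SE 0.0567, adjusted p = 1.04e-23) and IL1B by 1.64 (SE 0.216, adjusted p = 8.11e-09). TGFA fell by 1.80 (SE 0.0263, adjusted p = 3.3e-40). IL6 was called higher (1.43, adjusted p = 0.0336) at 70 and 45 counts with guides 2 and 1 and 18 in control, a call lost without control replicate 1, control replicate 3 or guide 1 replicate 3. Under SOX10 in knockout cells 3 rose and 10 fell, AREG by -2.16 (adjusted p = 2.43e-30) and F2RL1 by -1.53 (adjusted p = 8.38e-30), and in control cells 1 rose and 10 fell.

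Cell-surface partners that hold the enzymes at the membrane or signal with them were 9. In knockout cells 3 rose and 6 fell, with a median of -0.19, beside 28.6% of all genes higher and 29.5% lower. The integrin gene ITGB3 fell by 1.85 (SE 0.0472, edgeR adjusted p = 3.52e-27), ITGA2 rose by 1.28 (SE 0.0338, adjusted p = 2.79e-25) and CD44, the hyaluronan receptor, fell by 0.73 (SE 0.0195, adjusted p = 1.13e-30). SOX10 raised 2 and lowered 6 in knockout cells and raised 1 and lowered 7 in control cells. With total counts as the scale, 4 partners fell in knockout cells.

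Markers of other cells were measured beside these results. For the counts of markers that follow, 28.6% of all genes were called higher and 29.5% lower in knockout cells. For SOX10 it was 28.1% each way in knockout cells, and 17.3% higher and 17.2% lower in control cells. Beside MMP8, the sum over 8 neutrophil markers was 0.0404 to 0.555 CPM in knockout libraries, SOX10 included, and 0 to 0.109 CPM in control libraries, and 7 of the 8, all but LTF, were under 0.1 CPM on average in every group. LTF rose in knockout cells by 3.09 (edgeR adjusted p = 1.65e-06). The sum over 9 fibroblast markers, which include COL1A1 and COL3A1, was 55.7 to 57.5 CPM with guide 2 and SOX10, 50.2 to 50.9 with guide 1 and SOX10, 45.2 to 48.2 with guide 2, 41 to 45 with guide 1, 17.2 to 18.3 in SOX10-overexpressing control cells and 8.19 to 10.4 in control cells. In knockout cells 7 of these 9 rose and 1 fell, and their part in the MMP1, MMP3 and MMP13 differences was not tested. SOX10 raised 3 of the 9 and lowered 6 in knockout cells, with a median log2 fold change of -0.88, although the sum was higher. In control cells SOX10 raised 5 and lowered 1. Of 8 macrophage markers 4 were tested, of which 1 rose and 2 fell in knockout cells. CSF1R rose by 3.01 (adjusted p = 1.34e-10), CD14 fell by 2.07 (adjusted p = 0.00034), and CD163 was called lower (adjusted p = 0.0414) from the counts given above, a call lost in 8 alternatives. Under SOX10 in knockout cells CD163 and PTPRC rose, PTPRC by 1.33 (adjusted p = 0.0476) with libraries that overlapped, and CSF1R fell by 2.61 (adjusted p = 6.6e-13). Under SOX10 in control cells 1 rose and 1 fell. Sums over 8 keratinocyte markers lay between 42.6 and 50.2 CPM in all libraries, with KRT1, TP63, CDH1 and DSG3 under 0.1 CPM on average in every group. Of the 8 keratinocyte markers 4 were tested, of which 3 rose and 1 fell in knockout cells. Of 8 cartilage and tooth markers 3 were tested, of which 1 rose and 2 fell, and the enamel genes AMELX, AMBN, ENAM and KLK4 were under 0.1 CPM on average in every group, beside the MMP20 counts. Of 11 melanoma markers tested 3 rose and 8 fell in knockout cells, 6 with total counts as the scale. When SOX10 was overexpressed in knockout cells 8 rose and 1 fell. SOX10, the overexpressed gene, is in this list and among the 8, so its own rise there was set by the design.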

How the data were processed

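RNA-seq libraries of 18 A375 samples were analysed from 1 table of raw read counts per gene, which the authors deposited without normalization. HISAT2, HTSeq and the build hg38 are named per the submitters' processing notes. The versions, the gene annotation and whether strand was used in counting: not given in the sources used here. Per the labels' protocols, libraries were made with a stranded mRNA kit. Symbols and coordinates came from GENCODE 29 by identifier (58676 of 58721 matched) and promoter windows from RefSeq (GRCh38.p14).

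Counts were fitted in R 4.3.3 with edgeR 4.0.16 (filterByExpr, TMM, robust quasi-likelihood, 6 group means over all 18 libraries, 12 residual degrees of freedom). A gene was called at a Benjamini-Hochberg adjusted p under 0.05 over the 21060 genes tested, two-sided. The fit was checked on data simulated for the control and knockout groups without SOX10 overexpression. That check did not cover the SOX10 comparisons or changes in genes of low counts. Replicates of a group differed by more than sampling noise (chi-square per degree of freedom 3.54 to 11.8). Precision at low counts is limited by counting, and exact 95% intervals and the floor of 3 counts per library cover counting error only.

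The members and the 14 gene lists were chosen with earlier results of these data known, so members carry no p-value. Named genes are the 9 members, flanking genes within 1 Mb of at least 1 CPM on average, up to 6 genes per list with the largest knockout change among those called, and the 3 genes most like each member of at least 1 CPM (log2 CPM, prior count 2). A gene that this rule names in the list of activators is not reported here. Genes named in the text under SOX10 were further picked among these. CFAP300, a flanking gene below 1 CPM on average, was named outside the rule after its values were seen. Alternatives were DESeq2 1.42.0, other scalings and filters, fits of the compared groups alone, a replicate block and leaving out each library.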

Additional observations from a re-analysis of the deposited data

Results flagged for a closer look

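No explanation is weighed here. For 7 of the 10 flanking genes the SOX10 effect differed between knockout and control cells by edgeR's test of the difference itself. CEP126 differed by -0.89 on the log2 scale (adjusted p = 1.77e-09), being lower under SOX10 in knockout cells and at 0.07 in control cells. CFAP300, a flanking gene below 1 CPM on average and not among the 10, differed by -1.1 (adjusted p = 0.00763). BIRC3 differed by 0.38 (adjusted p = 0.00316) and BIRC2 by 0.23 (adjusted p = 3.52e-06). TMEM123 differed by 0.14 (adjusted p = 0.000979) and DCUN1D5 by -0.22 (adjusted p = 5.01e-06). PDGFD differed by -0.24 (adjusted p = 0.0139), a call lost without control replicate 2 (-0.21, adjusted p = 0.0551). YAP1 differed by 0.08 (adjusted p = 0.0475), a call lost in 15 of 25 alternatives. In all, 33.3% of the genes tested were called for this difference. SOX10 transcripts rose by 2.15 on the log2 scale in knockout cells and by 0.35 in control cells, and the part of that unequal rise was not tested.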

How the results depend on the processing

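All counts of called genes over the whole table stayed within 1.5 times their main value under every alternative run, for knockout against control between 10024 and 12657 beside 12230. Replicate numbers showed no pairing over all genes tested, where 45 correlations of deviations between same-numbered libraries of different groups were -0.03 to 0.071. That check weighs all genes alike, so it cannot exclude a pairing that touches only part of them. With the replicate block the knockout count was 12322, and guide 2 against guide 1 gave 2036 beside 1841. Scaling by total counts moved the share of higher calls to 72% beside 49.3% for knockout against control, to 73.5% beside 51.9% for knockout with SOX10 against control, to 74.5% beside 51.4% within SOX10-overexpressing cells and to 42.2% beside 30.4% for guide 2 against guide 1. With that scale the median log2 fold change of all genes for knockout was 0.146 beside -0.009, and changes are read relative to it. It turned TMEM123 to 0.13 (adjusted p = 5.44e-06), DCUN1D5 to 0.12 (adjusted p = 6.57e-05) and DYNC2H1 to 0.12 (adjusted p = 0.0116), put PDGFD past the threshold at 0.25 (adjusted p = 0.000392), and the cause was not tested. Of the members' fold changes under the alternatives, 1005 moved by less than the spread between replicates, 119 moved by more, and 0 called ones reversed. The rest of the limits are those of low counts. MMP7 and MMP20 rest on 1 control count each, in control replicate 1, and a filter at a mean of 1 CPM removes both. MMP12 against control was 2.72 to 3.67 for knockout with a library left out. For guide 2 against guide 1, MMP12 was also called lower under DESeq2, with no filter, with the filter at 1 CPM, or without guide 1 replicate 3 or guide 2 replicate 2. In a promoter window of 200 bases the SOX match of MMP7 and the LEF/SOX match of MMP10 are lost.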

Other observations

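Other proteases and inhibitors were chosen here after their values were seen. MMP14, the membrane protease that activates MMP2, fell by 0.95 (SE 0.0331, edgeR adjusted p = 1.6e-26) on the log2 scale in knockout cells, and MMP2, gelatinase A, rose by 0.30 (SE 0.0255, adjusted p = 2.16e-13). MMP9, gelatinase B, did not pass the test in knockout cells (-0.34, adjusted p = 0.535) and fell under SOX10 in control cells by 2.33 (SE 0.679, adjusted p = 0.00323) and in knockout cells by 1.07 (SE 0.415, adjusted p = 0.0231). It was detected in few counts, 13 to 74 per group, and its libraries overlapped for SOX10 in knockout cells. The promoter windows of MMP20 and MMP27, which are not printed, differed in the motifs searched. MMP20 held the AP-1 letters TGAATCA at bases -112 to -106 and TATAAA at -72 to -67, and MMP27 held AACAAT at -142 to -137.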
